A study of Nothobranchius furzeri with 20 samples.

Results

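The comparison described here is between livers of 9-week-old male turquoise killifish (Nothobranchius furzeri, strain MZM-04/10p) at 2 doses of rotenone, 10% and 1% of the LC50. Its members were all libraries that the labels place in these groups, 5 at 10% and 5 at 1%, or 10 of the 20 libraries of the series. The other 10 libraries were 5 from 27-week males at 1% and 5 from 9-week males at 0.1%. All of them served to place the result. The 27-week libraries also entered the main fit, through its filter, its scaling and its estimate of spread. Every listed fish had received rotenone, so each difference is between doses and not from an untreated state. The labels state neither the route and duration of treatment nor whether a fish gave 1 library only, and a p-value here measures no more than library-to-library spread.

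Rotenone is a plant-derived inhibitor of mitochondrial complex I, the first enzyme of the respiratory chain, which passes electrons from NADH to ubiquinone. The LC50 is the concentration that kills the median animal, so both doses lay below it. The liver, rich in mitochondria, carries out much of the body's synthesis of plasma proteins and its handling of lipids and foreign compounds. The turquoise killifish is an annual fish with a short adult life and is used in studies of ageing. The gene identifiers of the count table carry no names, so genes are given by identifier, no pathway is described, and the tissue could not be checked against liver markers. In bulk tissue, fewer cells of a type and less RNA per cell cannot be told apart.

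Total counts were 25.4 to 33.9 M (M, mega) per library at 1% and 24.9 to 30.4 M at 10%. Replicate 5 at 1% stood apart from its group before any comparison was made. Its counts correlated with the other 4 libraries at Spearman's rho of 0.921 to 0.933 across all genes, where those 4 correlated with each other at 0.962 to 0.972 and the 10% libraries at 0.965 to 0.978. It also had the fewest genes at 1 CPM or more (CPM, counts scaled to the library total), 11630. The other 4 at 1% had 13107 to 14080, and the libraries at 10% had 13379 to 13885. Results are therefore given with and without replicate 5 at 1%. Library totals alone were also the scale of the summary measures of the libraries. All other CPM here were further scaled by edgeR's TMM factors unless stated.

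At 10% of the LC50, 3713 of 16150 genes tested differed from 1%, which is 23.0% of all genes (edgeR's quasi-likelihood test, adjusted p below 0.05, hereafter called). Of these, 1528 were higher at 10%, or 9.46% of genes tested, and 2185 were lower, or 13.5%. Over all genes the fitted changes were centred near 0, with a median log2 change of -0.01, and the median absolute log2 change was 0.48. The test took 1 spread per gene over all groups in the fit, the 27-week group included. Replicates at 1% were more variable than those at 10%, as described below. With the 27-week group left out of the fit, 2453 genes passed among 15600 tested.

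Changes that passed were mostly moderate in size. The genes that rose had a median log2 change of 1.24, with the middle of the list between 0.89 and 1.81, and a median standard error of 0.31. Those that fell had a median of -1.07, between -1.47 and -0.79, with a median standard error of 0.24. Of the genes that rose, 718 changed between 2- and 4-fold, 235 between 4- and 8-fold and 64 by 8-fold or more. Of those that fell, 1017 changed between 2- and 4-fold, 175 between 4- and 8-fold and 43 by 8-fold or more. By fitted change, rises of 4-fold or more made up a bigger part of their list than such falls did of theirs, 19.6% against 9.98%. Standard errors were also larger among the rises, and the part of this in the difference was not tested. When the fold itself was tested for exceeding 2, 320 genes passed (edgeR's glmTreat), or 1.98% of genes tested. They comprised 106 of the 1528 rises and 214 of the 2185 falls, a smaller part of the rises than of the falls. That count was 185 without replicate 4 at 1%, and 198 and 186 without replicates 2 and 4 at 10%. A further 1002 genes had a fitted change of 2-fold or more without being called.

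**Figure D1:**
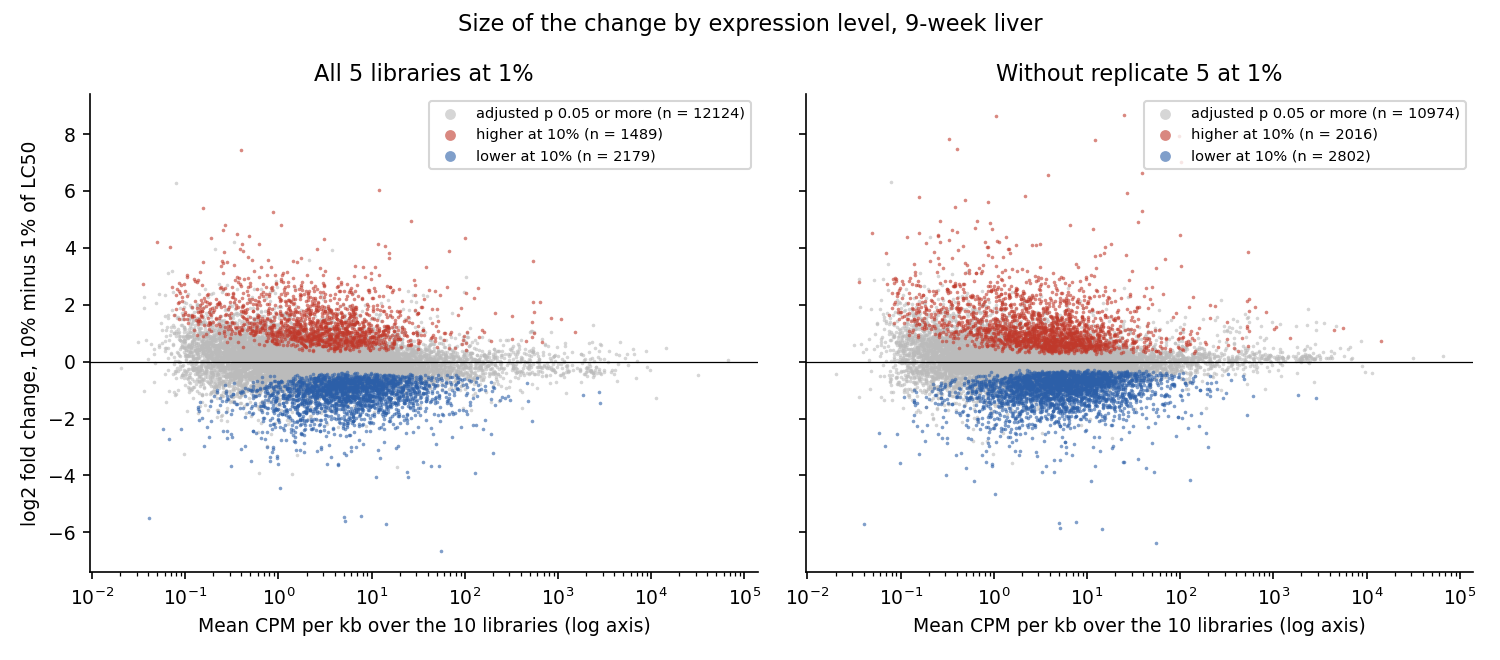
The log2 fold change of each gene with a known length (10% minus 1% of the LC50) is plotted against its mean level in CPM per kilobase on a log axis, with all 5 libraries at 1% on the left and without replicate 5 on the right. Red and blue points are genes called higher or lower at 10%; blue points lie mostly at middle and high levels, while red points reach further into low levels.

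Few genes crossed from below 1 CPM to above it between the doses. Of 16150 genes tested, 38 were at or above this limit in every library at 10% and below it in every library at 1%. All 38 were called higher. Only 15 genes showed the opposite pattern, and all 15 were called lower. Levels were low on the side where the gene was expressed, with a median of 1.63 CPM for the former and 3.12 CPM for the latter. Without replicate 5 at 1%, these numbers were 50 and 22. Genes chosen in this way cannot overlap between the doses, so that all were called follows largely from the choice. These numbers were taken on CPM with TMM factors. By library totals alone, the library with the fewest genes at 1 CPM or more had 11630 at 1% and 13379 at 10%. The part of this in the numbers was not tested.

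The 4 genes described singly are those with the largest changes, in each direction, among called genes at a mean of 10 CPM or more whose libraries did not overlap between the doses. Nfu_g_1_021215 stood at 1.11, 10.8, 117, 1.78 and 43.7 CPM in replicates 1 to 5 at 1%, and at 273, 323, 996, 979 and 1016 CPM at 10%. The lowest library at 10% was thus above the highest at 1%, although libraries at 1% spanned a wide range. The fitted log2 difference was 4.36 ± 1.08 (SE; edgeR adjusted p = 0.00919), went to 5.61 without replicate 3 at 1%, and was 6.09 with limma voom, a linear model on weighted log2 CPM. Its test for more than 2-fold did not pass (edgeR's glmTreat adjusted p = 0.0727).

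Nfu_g_1_020244 gave a tighter picture among the genes that rose. It stood at 4.69, 1.403, 7.01, 0.618 and 0.176 CPM at 1%, and at 41.4, 54.0, 48.7, 59.6 and 31.9 CPM at 10%. All libraries at 10% lay within a narrow band well above those at 1%, of which replicate 5 was the lowest. The log2 change was 4.06 ± 0.66 (SE; edgeR adjusted p = 0.000578), and 3.76 without replicate 5 at 1%. It was 4.72 without replicate 3 at 1% and 4.81 with limma voom.

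Nfu_g_1_001720 fell furthest of the genes taken by this rule. It stood at 25.1, 36.1, 9.04, 34.6 and 11.2 CPM at 1%, and at 0.338, 0.349, 0.360, 0.630 and 0.535 CPM at 10%. No library at 10% reached 1 CPM and none at 1% was below 9 CPM. The log2 change was -5.71 ± 0.54 (SE; edgeR adjusted p = 3.37e-05), and -5.89 without replicate 5 at 1%.

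Nfu_g_1_006520 fell by nearly as much, from less even levels at 1%. It stood at 1.75, 14.5, 124, 24.1 and 8.86 CPM at 1%, and at 0.677, 0.6625, 1.22, 0.787 and 0.206 CPM at 10%. Replicate 1 at 1% was barely above the highest library at 10%, while replicate 3 was far above all others. The log2 change was -5.59 ± 1.06 (SE; edgeR adjusted p = 0.00167). Without replicate 3 at 1% it was -4.11, and limma voom gave -4.47 and did not call the gene (adjusted p = 0.0649).

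**Figure D2:**
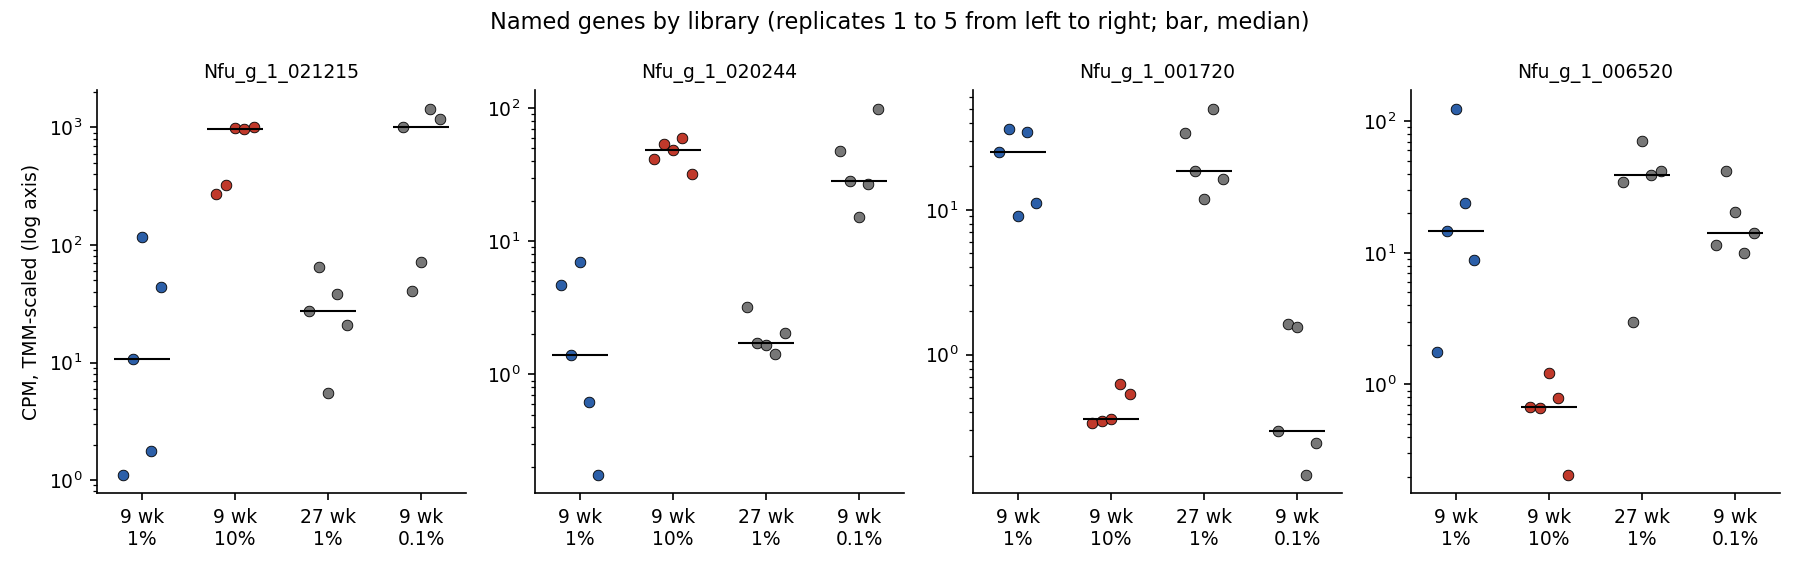
CPM of the 4 genes on a log axis, 1 point per library and a bar at each group's median, at 9 weeks and 1%, 9 weeks and 10%, 27 weeks and 1%, and 9 weeks and 0.1%. In every panel the 9-week 1% and 10% points do not overlap, and those at 1% are spread more widely. The 0.1% values were scaled with all 20 libraries and the others with 15.

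Direction went with expression level. Genes were placed in 4 equal bins by their mean level per length, in CPM per kilobase over the 10 libraries, for the 15792 tested genes whose length could be recovered. In the lowest bin, up to 1.03 CPM per kilobase, 378 genes (9.57% of the bin) were higher and 194 (4.91%) lower at 10%. Rises were thus 66.1% of its calls. That share was 47.0% in the second bin, 35.2% in the next and 26.8% in the highest. In the highest bin, from 8.73 CPM per kilobase, 286 genes (7.24%) were higher and 780 (19.8%) lower. Over all genes tested, 9.46% were higher and 13.5% lower. Calls were rarer at low levels, 14.5% of the lowest bin against 27.0% of the highest, and the median standard error was larger there, 0.45 against 0.25. The median log2 change of all genes in a bin went from 0.23 in the lowest through 0.01 and -0.09 to -0.19 in the highest. The filter worked by group, so a gene of low level could be kept through its libraries in 1 group alone. The part of this in the lowest bin was not tested, and the bins were not formed again under another filter.

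Gene length showed a weaker pattern of the opposite sign. Length is also the divisor of the level measure, so both patterns share it, and they were not separated. Among the shortest bin, up to 1394 bases, 242 of 3950 genes (6.13%) were higher and 537 (13.6%) lower at 10%. Among the longest, from 4778 bases, 513 of 3947 (13.0%) were higher and 455 (11.5%) lower. Over all genes tested these shares were 9.46% and 13.5%, so the shortest bin differed from them mainly in its rises. The median log2 change was -0.12 in the shortest bin and 0.11 in the longest. Without replicate 5 at 1%, falls outnumbered rises in both bins, with 571 genes higher and 648 lower among the longest and 405 higher and 720 lower among the shortest. The median log2 changes were then -0.04 in the shortest bin and 0.05 in the longest.

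The level pattern could be followed in single libraries. For each library, the median departure of genes from their mean over the 10 libraries was taken in the highest and in the lowest level bin, and the difference between these formed. This difference was -0.20, 0.20, 0.06, 0.41 and 0.68 in replicates 1 to 5 at 1%, and -0.34, -0.30, -0.02, -0.32 and -0.13 at 10%. All libraries at 10% were below 0, and at 1% only replicate 1 was. The means were 0.23 ± 0.33 at 1% and -0.22 ± 0.14 at 10% (SD, n = 5 each), a difference of -0.45 (exact two-sided permutation test, p = 0.0238, 0.0238 after adjustment over both patterns). For length, the difference between the longest and the shortest bin was -0.07, 0.01, 0.02, -0.04 and -0.42 at 1%, and 0.11, 0.21, 0.04, 0.06 and 0.01 at 10%. The groups overlapped slightly, with replicate 5 at 10% below the highest libraries at 1%. The means were -0.10 ± 0.18 and 0.08 ± 0.08 (SD, n = 5 each), a difference of 0.19 (exact two-sided permutation test, p = 0.0238, adjusted p = 0.0238). Both measures were chosen after the changes by bin had been seen in these same libraries. Their p-values are therefore a description and give no independent support to the patterns.

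Replicate 5 at 1% had the most extreme value of either measure, and both differences kept their sign when its value was left out. It still entered the gene means, bins and TMM factors behind the other values. In that case the difference between doses was -0.34 for level and 0.10 for length (exact two-sided permutation tests, 4 against 5 libraries, p = 0.0476 for each, adjusted p = 0.0476). The smallest p that such a test allows is 0.0159, and 0.00794 with all 10 libraries. The median log2 change in the highest level bin, however, moved from -0.19 to -0.04 without replicate 5. From the lowest to the highest bin, these medians were then 0.22, -0.01, -0.10 and -0.04, so they no longer fell at each step. The share of rises among calls then still fell across bins, at 62.1%, 44.9%, 38.2% and 32.5%.

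**Figure D3:**
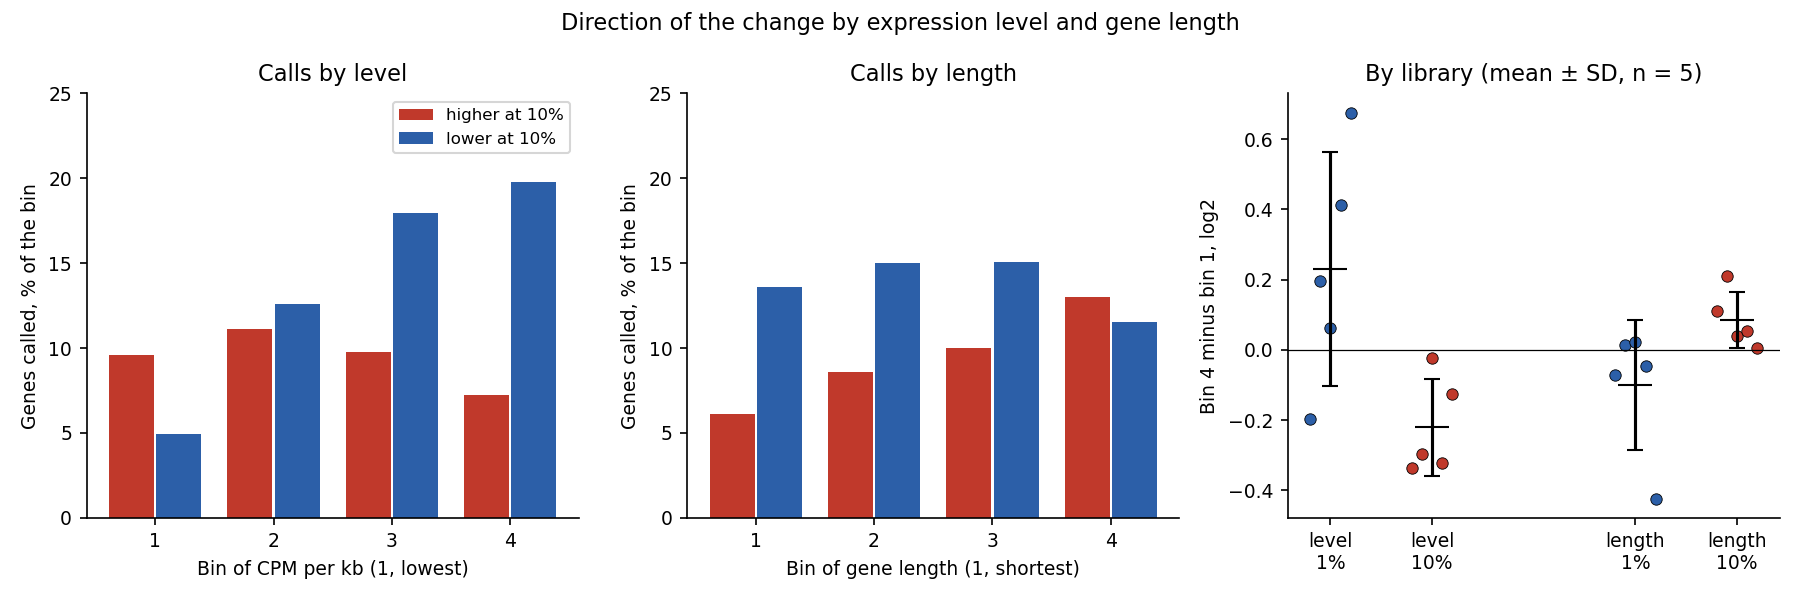
Bars give the percentage of genes in each bin of level (left) or length (middle) that were called higher or lower at 10%, from 0. Points on the right are libraries, each the median departure in the fourth bin minus that in the first, on the log2 scale, with the mean and SD of each dose; for level, the 10% libraries all lie below 0.

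Few of the most abundant transcripts were called. Of the 100 genes with the highest level per length, 1 was called higher and 3 lower at 10%, against 23.0% called among all genes tested, and their median absolute log2 change was 0.32. The highest level bin as a whole had 27.0% called. The 100 genes were not counted again without replicate 5 at 1%, whose median departure in that bin was 0.41 on the log2 scale. Its part in the few calls was not tested. Of 4 summary measures of the libraries, none differed between doses past the threshold by exact two-sided permutation tests over 5 and 5 libraries. The 100 most abundant genes of a library took up 50.6% ± 4.0 of the total at 1% and 53.8% ± 1.6 at 10% (SD over 5 libraries; exact permutation adjusted p = 0.296). The effective number of genes, the exponential of the Shannon entropy of the counts, was 856 ± 207 and 726 ± 67 (SD, n = 5 each; exact permutation adjusted p = 0.296). Genes at 1 CPM or more numbered 13135 ± 928 and 13723 ± 207 (SD, n = 5 each; exact permutation adjusted p = 0.296), and total counts were 27.7 ± 3.7 M and 27.96 ± 2.395 M (exact permutation adjusted p = 0.929). Without replicate 5 at 1%, the difference in genes at 1 CPM or more went from 588 to 212. The differences in the other measures of composition grew. That in the effective number of genes went from -130 to -192, and that in the share of the 100 most abundant genes from 3.24 to 4.35 points. Each then had an adjusted p of 0.159 (exact two-sided permutation tests). In all 3 measures of composition libraries at 1% were spread more widely than those at 10%.

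Consistency over libraries was described by whether the ranges at both doses overlapped. In 2458 genes, or 15.2% of those tested, the ranges of the 5 libraries at each dose did not overlap: 1094 genes (6.77%) were higher and 1364 (8.45%) lower in all libraries at 10%. Of these genes, 2200 were also called and 258 were not. Among the called genes, 886 of 1528 rises (58.0%) and 1314 of 2185 falls (60.1%) were without overlap. These genes were called on the same libraries, which raises such shares. At the other end, 141 rises and 441 falls had 3 or fewer of the 5 libraries at 10% outside the range at 1%.

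For each called gene, the library nearest to the other dose was found at either dose, whether or not the ranges overlapped. The library at 1% nearest to the 10% side was replicate 3 in 1317 of the 3713 called genes, replicate 1 in 1054, replicate 5 in 704, replicate 2 in 479 and replicate 4 in 159. At 10%, the library nearest to the 1% side was replicate 5 in 1616 genes, and replicates 3, 1, 4 and 2 in 764, 754, 304 and 275. Replicate 5 at 10% took this place in 1177 of the 2185 genes that fell, but in 439 of the 1528 that rose.

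Leaving out each of the 10 libraries in turn gave between 2780 and 4923 calls. In all 10 of these fits, 2338 genes were called in the same direction as with all libraries, or 63.0% of the 3713. These were 833 of the rises (54.5%) and 1505 of the falls (68.9%), with median log2 changes of 1.36 and -1.21. No called gene that was tested changed sign in any of these 10 fits. The genes had been called on these same libraries, and each fit left out only 1 of them. That raises the share kept and made a change of sign unlikely from the outset.

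Replicates at 1% were more variable than those at 10%. The median standard deviation of log2 CPM over genes tested was 0.63 at 1% and 0.30 at 10%, and 83.0% of genes had the larger value at 1%. Without replicate 5 the median at 1% was 0.39, and 63.6% of genes still had the larger value there. Among called genes, falls had medians of 0.49 at 1% and 0.28 at 10%, and rises 0.54 and 0.35.

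Replicate 5 at 1% differed from its own group in many genes. It lay 4-fold or more from the median of the other 4 libraries in 2998 genes, or 18.6% of those tested, of which 2332 were lower and 666 higher in it. The same count was 217 to 517 genes for the other libraries at 1% and 74 to 414 for those at 10%. It was the single library apart from the other 4 in 2718 genes by Dixon's criterion on log2 CPM, and no other library was so in more than 199 genes. Its departure varied with gene length, with a median of 0.08 on the log2 scale in the shortest bin, 0.32 and 0.18 in the middle ones, and -0.31 in the longest. It also varied with level, with medians of -0.07, -0.15 and -0.06 in the lower bins and 0.41 in the highest. The part of this dependence on length and level in the calls was not tested.

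By its median, this library was little displaced along the axis between the doses, but its genes were scattered. For each library, genes called in the fit without it were used, and its level was placed between the mean of its own group (0) and that of the other dose (1). Replicate 5 at 1% had a median position of 0.09 over 4871 genes, a lower median than those of replicates 1, 2 and 3, at 0.32, 0.14 and 0.37. Replicate 4 lay at -0.19, beyond the mean of the rest of its group. The positions of replicate 5 were scattered, with quartiles of -0.72 and 0.94, so that 46.7% of genes lay beyond its own group's mean and 23.7% beyond the mean at 10%. At 10% the median positions were 0.03, -0.08, 0.09, -0.03 and 0.26 for replicates 1 to 5, and the last was the one nearest to 1%.

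**Figure D4:**
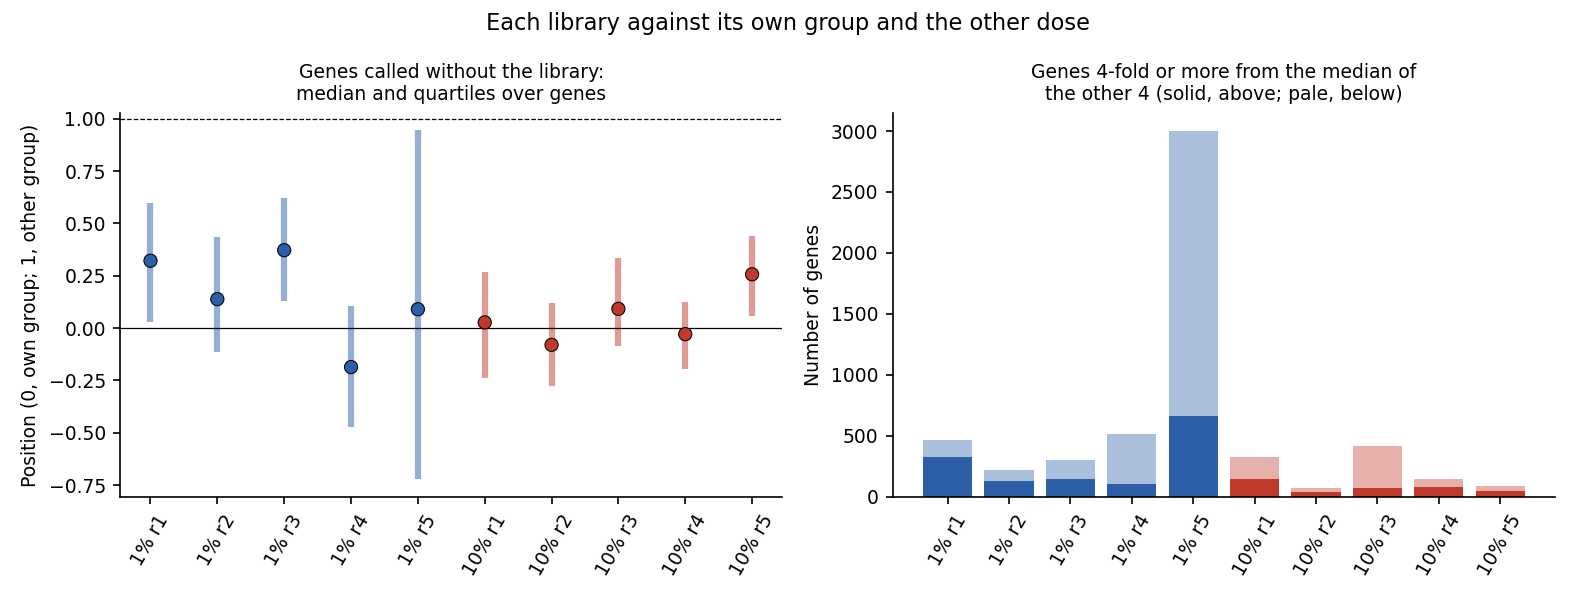
Left, the median position of each library (point) with the quartiles over genes (line), for genes called in the fit without that library, where 0 is its own group and 1 the other dose. Right, the number of genes in which a library lay 4-fold or more above (solid) or below (pale) the median of its 4 fellows; replicate 5 at 1% reaches 2998 genes and no other library exceeds 517.

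Without replicate 5 at 1%, 4923 of 16441 genes were called, or 29.9%, with 2105 higher (12.8%) and 2818 lower (17.1%) at 10%. Of the 3713 genes called with it, 3469 remained, 1425 higher and 2044 lower. The 244 that did not remain were 103 rises and 141 falls. In 88.3% and 100% of them replicate 5 lay beyond the mean of its fellows, on the side away from 10%. Among genes tested both ways, 1402 were called only without it, 636 higher and 766 lower, and in 81.1% and 92.7% of these replicate 5 lay nearer to the 10% mean. These shares follow from the choice of genes and are given as a description. The fitted fold of 91 of the 3713 genes (2.45%) moved by more than 1.5 times. These genes were called with replicate 5 in the fit, which lowers this share. Where replicate 5 was low, leaving it out could raise the mean at 1% only a little, so such a move was hardly possible. Among genes called only without it, 135 of the 636 rises and 0 of the 766 falls moved so far. Ranges did not overlap in 3601 genes without it (21.9%), 1516 higher (9.22%) and 2085 lower (12.7%). With 1 library fewer, a lack of overlap is easier to reach. Leaving out any other library also raised this number, to between 2638 and 3191 genes. Without replicate 5 at 1%, 350 genes (2.13%) passed the test for more than 2-fold.

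Libraries outside the comparison were placed on the same axis, from the 9-week 1% mean (0) to the 10% mean (1). For the 1528 genes that rose, the 27-week 1% libraries had median positions of 0.36 to 0.45 and the 9-week 0.1% libraries of 0.75 to 0.94. For the 2185 genes that fell, these were 0.20 to 0.34 and 0.79 to 0.98. By these medians every library at 0.1% was nearer to 10%, and every 27-week library nearer to 9-week 1%, in both lists. Single genes were more mixed. In the 27-week libraries, 39.2% to 46.2% of the genes that rose and 20.6% to 34.7% of those that fell lay nearer to 10%. At 0.1%, these shares were 64.7% to 81.7% and 73.1% to 86.8%. The lists were chosen on the 9-week 1% and 10% libraries, which exaggerates the distance between those means.

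The 0.1% and 27-week 1% groups share no library with the comparison of 10% with 1%. In the contrast of 0.1% with 27-week 1%, fitted on all 20 libraries, 452 of the 1528 genes that rose from 1% to 10% were higher at 0.1% (29.6%) and 6 were lower. Over all 16150 genes, 889 (5.50%) were higher and 1048 (6.49%) lower at 0.1%. Of the 2185 genes that fell, 776 were lower at 0.1% (35.5%) and 7 higher. Median log2 changes in this contrast were 0.58 for the genes that rose, -0.56 for those that fell and 0.05 for all genes. Dose, age and table all differ between these 2 groups and cannot be told apart in it, and the 27-week libraries also entered the estimate of spread behind the calls.

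Among the genes described singly, Nfu_g_1_001720 stood at 11.9 to 49.9 CPM in the 27-week 1% libraries and 0.147 to 1.61 CPM at 0.1%. Nfu_g_1_020244 stood at 1.43 to 3.22 CPM at 27 weeks and 15.28 to 99.1 CPM at 0.1%. In both genes the 27-week libraries overlapped the 9-week 1% range and none overlapped the 10% range. Nfu_g_1_021215 stood at 5.52 to 64.6 CPM at 27 weeks, and at 0.1% it was 41.0 and 72.4 CPM in replicates 2 and 3 and 1012 to 1441 CPM in the others. Nfu_g_1_006520 did not follow this arrangement: it was at 9.96 to 41.5 CPM at 0.1%, above all libraries at 10%, and at 2.998 to 70.6 CPM at 27 weeks.

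**Figure D5:**
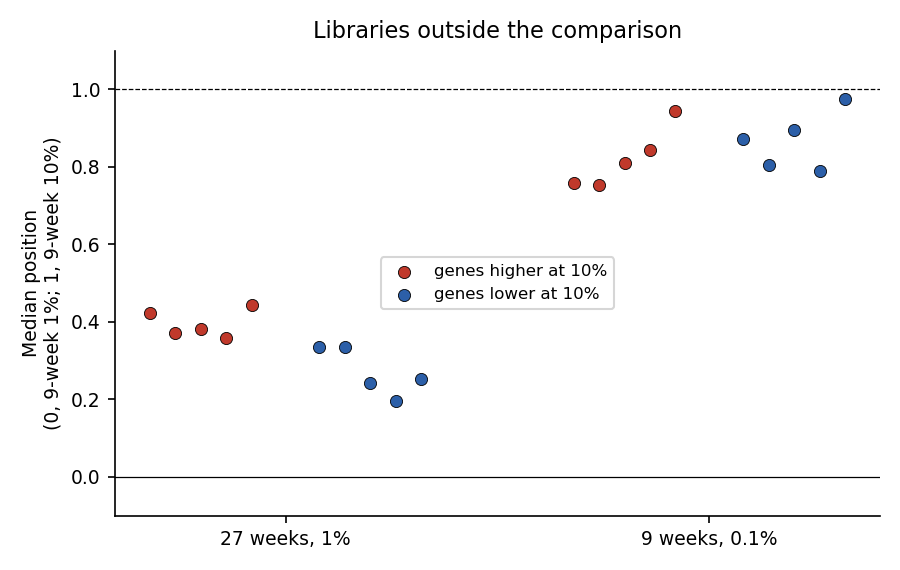
Median position of each library from outside the comparison, between the 9-week 1% mean (0) and the 9-week 10% mean (1), for genes higher (red) and lower (blue) at 10%; each point is 1 library. The 0.1% libraries lie between 0.75 and 0.98 and the 27-week 1% libraries between 0.20 and 0.45.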

How the data were processed

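Raw counts were deposited by the authors as 1 table with the 9-week 1%, 9-week 10% and 27-week 1% libraries and another with the 0.1% libraries. Libraries were made from total RNA with a TruSeq RNA kit, per the labels' protocols. The submitters' processing notes name featureCounts 1.4.6-p4, STAR 2.4.1d and CASAVA 1.8.2. Genome build, annotation and use of strand: not given in the sources used here, so counts of overlapping, antisense and near-identical genes are uncertain. Another 10 columns belong to no listed sample and were not used. Of 26739 identifiers, 0 were found in RefSeq's genes of assembly NfurGRZ-RIMD1, so no gene list was tested.

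The authors' deposited RPKM table was treated as a score: library totals had been recycled down its rows with a period of 35, so values are not scaled per library. Solving for this pattern (largest relative difference from the totals of 20 libraries 1.25e-06) gave lengths for 16415 genes, which were used here only to group genes.

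The main test was edgeR 4.0.16 (R 4.3.3) with filterByExpr, TMM factors, 1 mean per group over the 15 libraries of the first table, quasi-likelihood F-tests and Benjamini-Hochberg adjustment at 0.05; glmTreat tested for more than 2-fold. Standard errors are the absolute log2 change divided by the square root of F. Log2 CPM had a prior count of 2. Alternatives used DESeq2 1.42.0, limma 3.58.1, other filters, scalings and sets of libraries, and each library left out. The test was tried on simulated counts. Replicate numbers are names given in list order; the labels give no batch. Replicate pairs differed with a chi-square of 50.6 to 499 per degree of freedom, so none repeated another. Groups, tests and the rule for named genes (at most 2 rises and 2 falls, called, without overlap, mean CPM of 10 or more) were chosen with earlier results of these data known.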

Additional observations from a re-analysis of the deposited data

Results flagged for a closer look

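In groups of 5 libraries, a library was marked where its gap to the nearest other exceeded 0.71 of the group's range (Dixon's criterion). For normally distributed values, chance gives this in about 1 group in 20. In all, 20 groups were examined and 3 were marked. Replicate 5 at 1% had 2998 genes at 4-fold or more from the median of its fellows, which had 217 to 517. Replicate 3 at 1% held 124 CPM of Nfu_g_1_006520, against 1.75 to 24.1 CPM in the other 4 libraries. This mark was made on CPM, where high values stand further apart than on log2 CPM. Replicate 1 at 10% had 56.6% of its counts in its 100 most abundant genes, against 52.5% to 53.7% in the others.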

How the results depend on the processing

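With both groups alone in the fit, 2453 genes were called (1002 higher and 1451 lower at 10%) and 166 passed the test for more than 2-fold; with replicate 5 at 1% also left out, which was added after the data were seen, 4146 were called. The other alternatives moved no count of calls by more than 1.5 times: they gave 3248 (scaled by library totals only, added after the data were seen) to 4646 (DESeq2), with limma voom at 3261 and at 4321 with library quality weights, which gave replicate 5 at 1% a weight of 0.0753 and the other 9 libraries 0.541 to 2.01. Rises were 33.1% of calls when scaled by library totals, against 41.2%. Leaving out 1 library gave 2780 to 4923 calls (1055 to 2105 higher, 1668 to 2818 lower), 185 to 440 genes past the test for more than 2-fold, and a median standard deviation at 1% of 0.39 to 0.67. Library quality weights gave log2 changes of 6.07 for Nfu_g_1_021215 and -4.88 for Nfu_g_1_006520, more than 1.5 times from the main values. The difference in total counts, 0.24 M, was -0.29 M without the 10 most abundant genes and -0.37 to 1.78 M with 1 library left out. The difference in the effective number of genes, -130, was -198 without the 10 most abundant genes and -192 to -74.7 (the latter without replicate 3 at 1%) with 1 library left out, and that in genes at 1 CPM or more was 212 to 825. The differences by level and by length kept their sign with the value of any 1 of the 10 libraries left out, at -0.56 to -0.34 and 0.10 to 0.22. The highest exact permutation adjusted p was 0.0476, on measures chosen after the pattern had been seen. Genes without overlap numbered 2117 with CPM by library totals. The cause of these shifts was not tested. No paired analysis was possible because no label links a library at 10% with a library at 1%. The median standard error of a log2 change was 0.45 in the lowest level bin and 0.25 in the highest.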
